A study of Mus musculus with 19 samples.

Results

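Gene expression in the fetal mouse ovary at gestation day (gd) 14 was set against the stages on either side of it, gd12 and gd16. The comparison used 9 of the 19 arrays of the series, 3 at each of the 3 stages, and its measure was the log2 signal at gd14 minus the mean of the gd12 and gd16 stage means. Of 12592 genes tested, 838 had all 3 gd14 arrays above all 6 others and 642 had all 3 below. Genes that also passed the test of the difference are called peak genes (686) and trough genes (337) here. Their gd14 signals stood above or below those of both neighbours. How far they had turned back by gd16 varied, and the difference from gd12 or from gd16 did not have to pass a test by itself.

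The series follows whole ovaries of wild-type CD-1 mice, an outbred stock, at gd11, gd12, gd14, gd16, gd18 and postnatal day (pnd) 2, with 3 arrays a stage and a further array of a whole-animal reference that is not used here. RNA went through 2 rounds of amplification, was labelled with biotin and was hybridised to Affymetrix Mouse430_2 arrays. All 3 stages compared here share strain, tissue and protocol, and no group carries an allele, a transgene or a treatment. Mating was limited to a 2-hour window. The sample labels give the gd12 and gd14 samples as pools of 3 and the gd16 samples as not pooled, while the description of the series gives every sample as the ovaries of 1 animal, each from its own dam. If the labels hold, pooling and stage cannot be told apart between gd14 and gd16, whereas gd12 and gd14 were treated alike. In a whole ovary, fewer cells of a type and less RNA per cell cannot be told apart either.

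The sample numbered 7 at gd16 stood apart from the other ovary arrays. Its signal for Xist, the RNA that coats the inactive X chromosome, was 44.8, against 11306 to 18576 on the other 17 ovary arrays. Its signals for the Y-linked genes Eif2s3y, Kdm5d and Uty were 40.2, 64.4 and 29.4. On the other 17 arrays these ran from 1.17 to 33.1, from 7.64 to 84.4 and from 1.64 to 45.7. All of these Y-linked signals were under 116, the median signal. The 3 gd16 arrays also resembled each other less than the arrays of the other 2 stages did, with a mean correlation to the same stage of 0.954 to 0.958 against 0.970 to 0.976. The total counts, the meiotic peaks and the X-linked genes are therefore also given without sample 7, and counts of other lists that moved by over 1.5 times without it are given beside them. The ratio of 3′ to 5′ Gapdh signal, a measure of RNA integrity, was 4.09 to 4.96 at gd14, 3.48 to 4.28 at gd12 and 4.27 to 5.59 at gd16, so that gd14 overlapped both of its neighbours. The same ratio for actin was 2.43 to 2.83 at gd14, above the 2.26 to 2.33 of gd12 and within the 2.33 to 3.54 of gd16, and its part in the results was not tested. Median signals ranged from 109 to 117 at gd14, from 112 to 115 at gd12 and from 121 to 138 at gd16.

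In the mouse ovary, germ cells stop dividing by mitosis and enter meiosis in the days between gd12 and gd16, in response to retinoic acid and bone morphogenetic protein signals. The entry factor STRA8, with its partner MEIOSIN, switches on genes whose products build the axis of the meiotic chromosome, cut and repair its DNA and tie its ends to the nuclear envelope. Cells then pass through leptotene, zygotene and pachytene before they arrest late in prophase. MEIOC and the RNA helicase YTHDC2 act together to lower transcripts of the mitotic programme.

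The gd14 stage differed from its neighbours more often upwards than downwards. By limma, 1067 genes (8.47% of those tested) were higher at gd14 than the mean of the other 2 stages and 667 (5.3%) were lower, at an adjusted p under 0.05, 13.8% together. Over probe sets, 7.37% were called higher and 4.75% lower. The share of calls that were higher was 61.5% and rose to 81.0% when arrays were scaled to a common median. Non-overlap was met upwards by 6.66% of tested genes and downwards by 5.1%, and with the call added the peak genes made up 5.45% and the trough genes 2.68%. Both criteria were read from the same 9 arrays, so they are not independent of each other. Without gd16 sample 7, 962 genes were called higher and 522 lower. There were then 683 peak and 315 trough genes, of which 635 and 268 were among the original 686 and 337. The number of trough genes was 178 without gd14 sample 12.

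Peaks were also steeper than troughs. The difference from gd12 and the difference from gd16 were both at least 1 on the log2 scale for 152 peak genes and for 15 trough genes, and both at least 2 for 18 peak genes and 0 trough genes. The median contrast was 0.79 over the peak genes and −0.59 over the trough genes, beside −0.06 over all tested genes. For 419 of the 686 peak genes the 3 gd14 arrays also lay above the 9 arrays of gd11, gd18 and pnd2. For 101 of the 337 trough genes they lay below them. The non-overlap rule had not used these arrays, but the signal filter and the spread in the test had. They are therefore no independent check. With the test fitted to the gd12, gd14 and gd16 arrays only, there were 638 peak genes, 624 of them among the 686. Of the 686 peak genes, 583 had their highest stage mean at gd14 and 79 at pnd2.

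**Figure D1:**
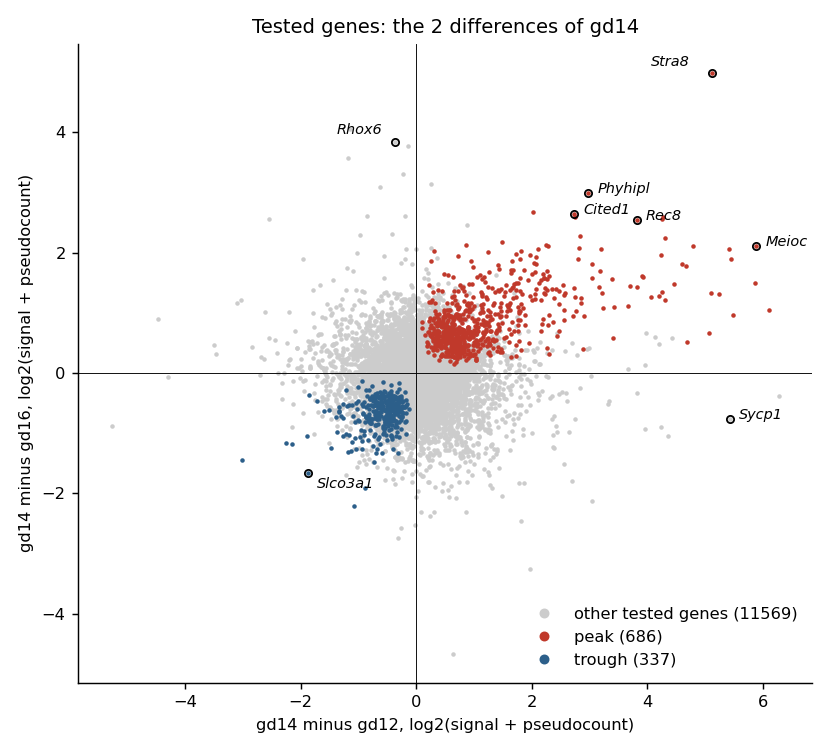
Each point is 1 of 12592 tested genes, placed by gd14 minus gd12 (horizontal) and gd14 minus gd16 (vertical), both on the log2(signal + 31) scale, with the 686 peak genes in red and the 337 trough genes in blue. Stra8 lies alone at the upper right (5.12 and 4.98), Sycp1 far to the right but below 0 on the vertical axis (-0.76), and Rhox6 high on the vertical axis but left of 0 (-0.37).

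Stages around gd14 gave other counts under the same rule. At gd12, set against gd11 and gd14, 99 genes (0.786%) were called and above all 6 others and 84 (0.667%) were called and below. At gd16, set against gd14 and gd18, these counts were 540 (4.29%) and 547 (4.34%). At gd18, set against gd16 and pnd2, they were 90 (0.715%) and 89 (0.707%). The gd14 stage therefore had the highest count of peaks, and gd16 the highest count of troughs. These comparisons share arrays, the interval from gd11 to gd12 is shorter than the others, and no test was made between the counts.

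Meiotic genes were the clearest group among the peaks. Lists of meiotic licensing, cohesin and axis, synaptonemal complex, recombination and telomere attachment genes held 64 entries in all, and 49 of them could be tested. Among these 49, 40 were called higher at gd14, 0 were called lower and 30 were peak genes, where 8.47% of all tested genes were called higher and 5.45% were peaks. The median contrast over the 49 was 1.67. A gene entered the test only where at least 1 stage mean passed the signal filter. Of the 49, 3 passed it through gd14 alone (Stra8, Mei4 and Hormad2), so the share called among tested genes is not a share of the lists. The 30 peak genes were also 30 without gd16 sample 7, and 27 without gd14 sample 12, the fewest with 1 array left out. With a gap of at least 0.5 on the log2 scale between gd14 and the others, 18 of them remained peaks. For 26 of the 30, the gd14 arrays lay above all 15 other ovary arrays.

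Stra8, the entry factor, had the largest contrast of all tested genes. Its signals on the gd14 arrays were 2189, 3199.7 and 3583, against 10.8, 135 and 57.6 at gd12 and 83.3, 21.6 and 105 at gd16. Stage means were 2990.4 ± 720.2 at gd14 (SD, n = 3), 67.9 ± 62.9 at gd12 and 70.1 ± 43.4 at gd16. The lowest gd14 array was far above the highest of the 6 others, and gd11 (31.8), gd18 (56.4) and pnd2 (52.5) were as low as gd12. The contrast was 5.05 ± 0.41 (SE) on the log2 scale, with an adjusted p of 2.23e-07 by limma. On that scale, 97.3% of the rise from gd12 to gd14 was undone by gd16. Stra8 passed the signal filter through gd14 alone, and its contrast ranged from 4.08 to 5.58 over 20 alternatives.

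Meioc, which keeps germ cells in the meiotic programme, rose further than Stra8 from gd12 (5.89 against 5.12 on the log2 scale) and came down only in part. Signals were 6957, 4555 and 5921 at gd14, 42.0, 190.4 and 25.3 at gd12 and 1616, 975 and 1397 at gd16, so the 3 stages formed 3 separate ranges. Its contrast was 4.00 ± 0.37 (adjusted p = 1.02e-06) and 35.8% of its rise was undone by gd16. Taf7l, an X-linked relative of a subunit of the general transcription machinery, read 7594, 6715 and 5813 at gd14 after 125 to 182 at gd12, and spread from 1146 to 4526 at gd16, with sample 7 the lowest there. Ythdc2, the partner of MEIOC, and the RNA-binding gene Rbm46 were called higher (contrast 0.76 ± 0.19 for Ythdc2) but were not peak genes, since their ranges overlapped. Zfp541 was called higher at a contrast of 1.29 and had a mean of 455 at gd16 against 384 at gd14. Of the 9 licensing genes listed, 7 were on the arrays under a single-gene probe set, and Meiosin was not among them.

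Start-site sequences are shown for the highest 3 peak genes with an entry in the RefSeq promoter table (build GRCm38.p6), namely Stra8, Phyhipl and Cited1, and for Rec8, added after its values were seen because its product is the meiotic cohesin. Each run covers 250 bases before and 50 after the start, read 5′ to 3′ on the strand of the gene. Phyhipl has 2 listed starts and Cited1 3, and the first listed is shown. The windows are chr6:34920698-34920997 (plus strand), chr10:70599242-70599541 (minus strand), chrX:102252132-102252431 (minus strand) and chr14:55617916-55618215 (plus strand). Capitals mark matches to any of 4 motifs on either strand: CACGTG (an E-box), AGGTCA (a half-site of retinoic acid receptors), TCCCGC (an E2F-type core) and CNCCTCAG (a motif linked to STRA8 in mouse).
Stra8: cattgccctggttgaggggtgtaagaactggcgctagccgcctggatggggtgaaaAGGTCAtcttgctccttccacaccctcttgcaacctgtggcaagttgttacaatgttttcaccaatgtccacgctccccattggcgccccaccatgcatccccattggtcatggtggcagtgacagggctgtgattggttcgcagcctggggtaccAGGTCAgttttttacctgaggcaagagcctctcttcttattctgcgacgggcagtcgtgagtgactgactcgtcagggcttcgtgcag
Phyhipl: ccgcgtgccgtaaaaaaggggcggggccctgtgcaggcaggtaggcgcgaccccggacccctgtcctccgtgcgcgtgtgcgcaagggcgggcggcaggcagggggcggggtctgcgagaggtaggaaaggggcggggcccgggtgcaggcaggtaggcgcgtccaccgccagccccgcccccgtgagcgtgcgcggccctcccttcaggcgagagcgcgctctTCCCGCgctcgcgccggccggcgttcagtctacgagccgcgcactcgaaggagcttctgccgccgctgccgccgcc
Cited1: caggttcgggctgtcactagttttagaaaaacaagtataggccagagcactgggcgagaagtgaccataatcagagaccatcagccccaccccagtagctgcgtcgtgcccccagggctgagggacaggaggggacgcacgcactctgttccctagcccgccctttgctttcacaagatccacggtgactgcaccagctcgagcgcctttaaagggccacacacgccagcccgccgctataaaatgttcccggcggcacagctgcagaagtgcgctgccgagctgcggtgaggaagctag
Rec8: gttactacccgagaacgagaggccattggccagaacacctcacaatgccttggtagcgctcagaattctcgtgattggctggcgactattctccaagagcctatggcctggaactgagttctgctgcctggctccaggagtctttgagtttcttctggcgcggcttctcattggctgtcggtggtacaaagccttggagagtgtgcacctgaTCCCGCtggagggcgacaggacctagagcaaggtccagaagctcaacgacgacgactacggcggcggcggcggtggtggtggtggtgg
Stra8 held AGGTCA 194 and 38 bases before the start, Phyhipl held TCCCGC 26 bases before it, Rec8 held TCCCGC 38 bases before it, and Cited1 held no match to these letters.

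Over all 27018 promoters of the table, AGGTCA occurred in 16.0%, TCCCGC in 20.0%, CNCCTCAG in 7.97% and CACGTG in 7.24%. Among the 573 peak genes with a promoter entry these shares were 11.5%, 41.7%, 17.6% and 9.77%, and among all 10153 tested genes with an entry they were 11.8%, 36.2%, 9.23% and 10.2%. For the 253 trough genes with an entry they were 10.3%, 41.1%, 6.32% and 11.5%. Of the 4 motifs, CNCCTCAG thus stood at a higher share in peak promoters than in tested promoters and at a lower share in trough promoters, and TCCCGC was at a like share in both sets. Of 26 meiotic peak genes with an entry, 18 (69.2%) held TCCCGC, 6 (23.1%) held CACGTG, and CNCCTCAG and AGGTCA were each held by 5 (19.2%). These shares describe letters in a window and were not tested, and base composition was not matched.

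**Figure D2:**
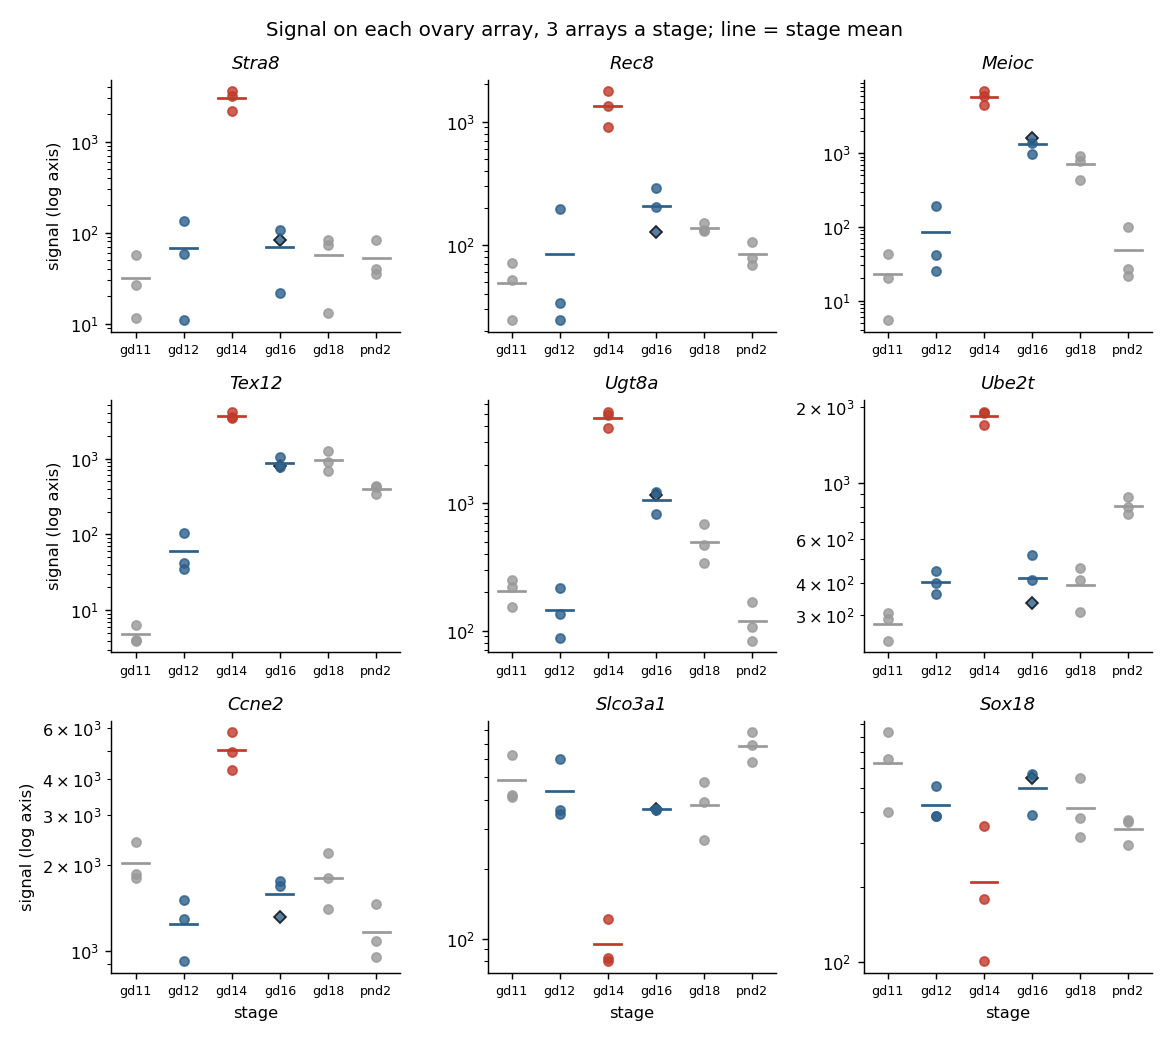
Each panel shows the signal of 1 gene on the 18 ovary arrays (log axis) by stage, with points for arrays, a line for the stage mean, red for gd14, blue for gd12 and gd16, grey for the other stages and an outlined diamond for gd16 sample 7. Stra8, Rec8, Meioc, Tex12, Ugt8a, Ube2t and Ccne2 are highest on the 3 gd14 arrays, and Slco3a1 and Sox18 lie below their gd12 and gd16 arrays there.

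Genes of the cohesin complex and the chromosome axis rose together, and 10 of the 11 tested were peak genes. Rec8, the meiotic kleisin that holds sister chromatids, read 911, 1339 and 1763 at gd14, 33.6, 196 and 24.5 at gd12 and 126, 288 and 201 at gd16. The highest of the 6 other arrays was at 288 and the lowest gd14 array at 911, and the contrast was 3.18 ± 0.35 (adjusted p = 7.64e-06). Stag3, another meiotic cohesin subunit, had means of 551 ± 149, 4111 ± 388 and 1756 ± 438 at gd12, gd14 and gd16. Hormad1, an axis protein needed for homologue pairing, read 2259, 1750.0 and 1851 at gd14, between 24.2 to 90.5 at gd12 and 404 to 789.9 at gd16. Hormad2, its relative, was at 8.87 to 12.9 at gd12, 227 to 311 at gd14 and 6.08 to 109 at gd16.

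The axis genes differed in how far they had come down by gd16. Mei4 and Rec114, whose products act with SPO11 to form DNA breaks, gave back 104% and 78.5% of their log2 rise, and Rec8 and Hormad2 66.6% and 67.4%. Mei4 and Hormad2 passed the filter through gd14 alone. With the pseudocount at the median signal their contrasts were 0.94 and 1.36, against 1.67 and 2.35. Sycp3, which forms the lateral element of the synaptonemal complex, gave back 25.9%, with means of 419, 13735 and 5575. Sycp2, its partner, gave back 13.3% and Smc1b, the meiotic form of the SMC1 cohesin arm, 11.0%. All of these met the same rule, so a peak gene could be one that was almost back at its gd12 level or one that stayed far above it. Across the 36 genes of the 5 meiotic lists that rose by at least 1 from gd12 to gd14, the median share undone was 34.7% and the range ran from −23.5% to 104%.

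**Figure D3:**
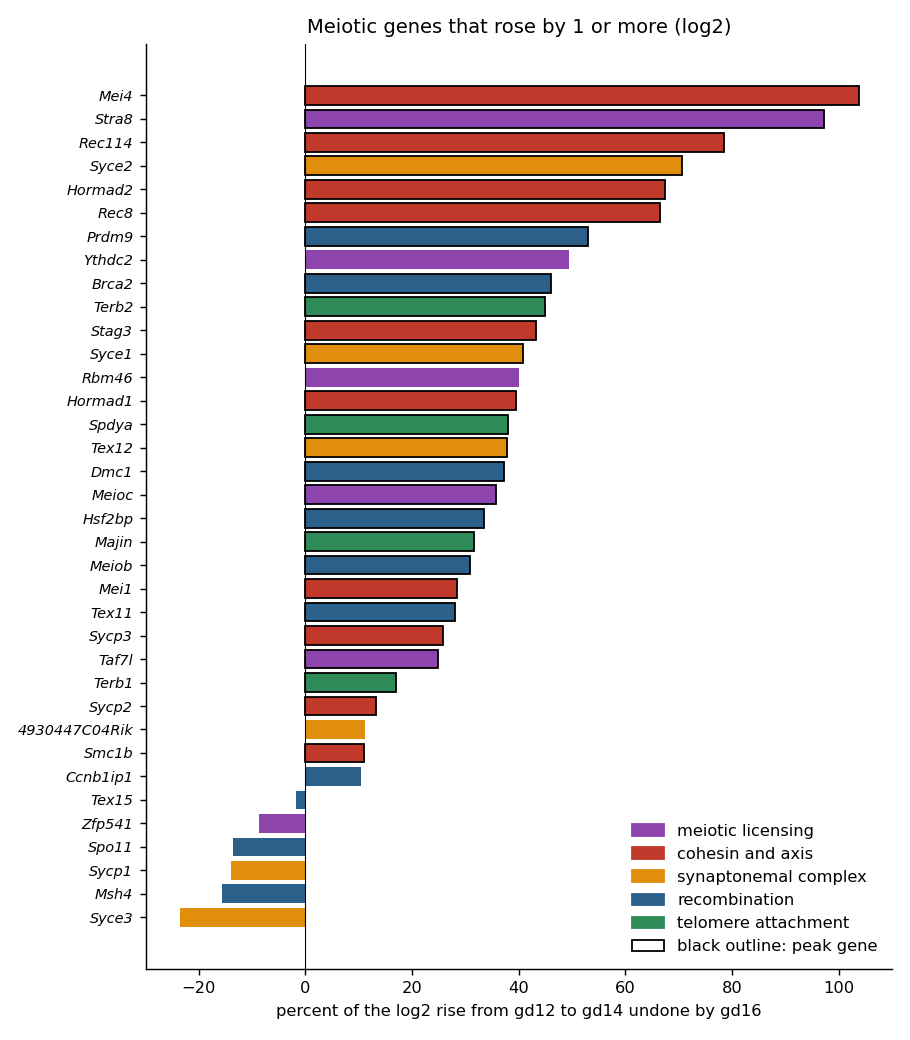
Bars give, for the 36 genes of the 5 meiotic lists that rose by at least 1 on the log2 scale from gd12 to gd14, the percent of that rise undone by gd16, coloured by list and outlined in black for peak genes. Mei4 (104%) and Stra8 (97.3%) head the plot, and both passed the signal filter through gd14 alone. The 6 genes below 0 had a higher mean at gd16 than at gd14, Syce3 the farthest at -23.5%.

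Synaptonemal complex genes split into peaks and genes that held their level. All 6 tested were called higher, and 3 were peaks: Syce1, Syce2 and Tex12, which encode parts of the central element. Tex12 read 4148, 3406 and 3482 at gd14, 41.5, 104 and 34.8 at gd12 and 802, 765 and 1032 at gd16, and its contrast of 3.74 ± 0.21 had the smallest adjusted p of the named genes (9.73e-09). Syce2 read 10474, 8625 and 8225 at gd14 against 1663 to 2579 at gd12 and 2500.4 to 3929 at gd16. Sycp1, the transverse filament that bridges the paired axes, read 3599, 1473 and 1843 at gd14 and 3550.1, 3214 and 4233 at gd16, so that gd14 and gd16 overlapped. Its call (contrast 2.34 ± 0.28, adjusted p = 1.52e-05) came from gd12, where it was at 1.92 to 40.1. Syce3 had means of 41.2, 1201 and 2125 and was no peak gene either.

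Of 19 recombination genes tested from 28 listed, 13 were called higher, 0 lower and 9 were peaks. Prdm9, the histone methyltransferase that places recombination hotspots, read 559.6, 435 and 462 at gd14, 10.4, 39.4 and 30.6 at gd12 and 136, 101 and 153 at gd16 (contrast 2.44 ± 0.26, adjusted p = 4.69e-06). Dmc1, the meiotic strand-exchange protein, read 1742, 1405 and 1536 at gd14, then 553, 577 and 554 at gd16, after 43.8 to 107 at gd12. Every gd14 array lay above every other ovary array for both genes. Meiob and Hsf2bp, which act on the single-stranded DNA of the breaks, had contrasts of 2.66 and 2.16. Tex11, an X-linked crossover gene, read 2268, 1759 and 2399 at gd14 and 619, 758 and 1541 at gd16, with 40.2 to 118 at gd12.

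Repair genes that dividing cells use as well peaked with smaller contrasts: Brca1 0.48 ± 0.11, Brca2 0.74 ± 0.19, Rad51ap1 0.48 ± 0.14 and Brip1 0.90 ± 0.20, all called, though Brip1 was not without gd14 sample 12. The difference of Brip1 from gd12 was 0.62 and did not pass by itself (adjusted p = 0.0731 by limma). Spo11, the topoisomerase relative that makes the breaks, had 969, 402 and 523 at gd14 and 848, 594 and 777 at gd16, which overlapped, and 78.6 to 130.3 at gd12. Its call (0.94 ± 0.29, adjusted p = 0.0396) was lost without any 1 of gd12 samples 13 and 15, gd14 samples 10 and 12 and gd16 sample 8, with adjusted p from 0.0237 to 0.256 over 20 alternatives. Msh4 and Tex15 were called higher (contrasts 1.40 and 1.49), with gd16 means of 624 and 7137 against 426 and 6476 at gd14.

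Genes that tie chromosome ends to the nuclear envelope gave 5 peaks among 6 tested. Terb1 read 5321, 3033 and 3353 at gd14, 2.23, 53.0 and 29.8 at gd12 and 1349, 2309.5 and 1931 at gd16, and only 17.1% of its rise was undone. Terb2 and Majin, which form a complex with TERB1, had contrasts of 2.30 ± 0.26 and 2.80 ± 0.26. Spdya, a cyclin-like activator of CDK2 at the telomere, read 2519.6, 1512 and 1858 at gd14 against 35.7 to 59.1 and 451 to 641 at gd12 and gd16. Sun1, a nuclear envelope protein of many cell types, was a peak with the low contrast of 0.35 ± 0.10.

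Germ cell RNA genes gave 7 peaks among 20 tested, with 14 called higher and 1 lower, beside 5.45%, 8.47% and 5.3% of all tested genes. Dazl, an RNA-binding protein that makes germ cells able to enter meiosis, read 8934, 10329 and 11854 at gd14, 2989.9, 4949 and 1285 at gd12 and 3384, 3684 and 3476 at gd16. Ddx4, the helicase often used as a germ cell marker, read 7258, 7432 and 9912, 1389.9, 2982 and 581 and 3342, 3028 and 3492 in the same order. Both were peaks, with contrasts of 1.74 ± 0.35 and 1.93 ± 0.33, and in both gd12 sample 14 was the highest of its stage. Rnf17, a Tudor protein of germ granules, read 3259, 2800.0 and 3732 at gd14 and was back to 523 to 896 at gd16 after 367 to 1105 at gd12. Of its 4 tested probe sets 2 were peaks. Another had means of 112, 1125 and 932 at gd12, gd14 and gd16, so its rise was mostly kept. Slc25a31, the germ cell exchanger of ADP and ATP, had means of 1036 ± 773, 13372 ± 1115 and 4386 ± 895. Tex101, a surface protein, rose by 5.87 on the log2 scale from gd12 and was 1.49 above gd16, while Tex14, of the bridges between germ cells, had a contrast of 1.91 ± 0.26. Mael, Tdrd7, Mov10l1, Gtsf1, Piwil2 and Asz1, which serve the piRNA defence against transposons, were called higher but had like or higher means at gd16, such as 4374 at gd14 and 4082 at gd16 for Mael. Tdrd9 was called lower (-0.64 ± 0.21), with means of 78.5, 389.5 and 4052, and it was not called without any 1 of gd12 samples 13 and 15, the gd14 samples and gd16 samples 8 and 9.

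The summed signal of germ cell RNA genes comes from the same genes and arrays, so it is no separate reading. Over the 21 on the arrays it was 54776 to 61633 at gd14, 5204 to 16640 at gd12 and 29368 to 36812 at gd16. At gd18 it was 38951 to 68147, which overlapped gd14. Sample 14 had the highest sum at gd12. The 25 pluripotency and primordial germ cell genes on the arrays summed to 21172 to 23142 at gd14, below the gd12 range of 25724 to 46384 and above the gd16 range of 8886 to 10006. How far the number of germ cells per ovary entered the peaks was not tested.

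Several of the highest peak genes lay outside the meiotic lists. Phyhipl read 1177, 601 and 795 at gd14, 128, 73.1 and 46.2 at gd12 and 105, 39.8 and 99.4 at gd16, and at gd11 it read 1336, 133 and 113, where sample 16 alone was above the gd14 range. A second Phyhipl probe set was called higher but was no peak, with means of 138, 253 and 41.0 at gd12, gd14 and gd16. Its difference from gd12 was 0.74, against 2.98 for the first. Cited1, an X-linked coactivator that binds CBP and p300, read 174, 293 and 213 at gd14 and no more than 14.0 on the 6 other arrays. Tppp, which promotes tubulin polymerisation, read 184, 269 and 296 at gd14 and no more than 35.5 on the others. Contrasts were 2.99 ± 0.51, 2.69 ± 0.31 and 2.67 ± 0.29. Cited1 and Tppp passed the filter through gd14 only, and their signals at the other stages were so low that the size of the change rests on the pseudocount of 31.

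M1ap and Dmrtc2, both needed for male meiosis in the mouse, also peaked. M1ap read 2157, 1704 and 1313 at gd14, 70.6, 74.7 and 35.9 at gd12 and 262, 140.4 and 471 at gd16, and Dmrtc2, a doublesex-related factor, had means of 31.3 ± 34.3, 1112 ± 194 and 259 ± 199. In Dmrtc2 gd16 sample 7 was the lowest of its stage at 70.5. Atf7ip2 was at 2435 to 3393 at gd14 and at 361 to 1136 at gd16, a gap that held but was set by gd16 sample 9. Strip2 read 413, 183 and 322 at gd14 and at most 97.6 on the 6 others.

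Ugt8a, the enzyme that makes galactosylceramide and is best known from myelin, was among the most clearly separated. It read 5234, 3881 and 4927 at gd14, 134, 216 and 87.2 at gd12 and 1152, 828 and 1215 at gd16, with a contrast of 3.45 ± 0.24 (adjusted p = 9.57e-08). Syn2, a synaptic vesicle protein, read 993, 742 and 804 at gd14 and at most 230.2 on the other 6 arrays. Slc22a21, a carnitine transporter, read 584, 384 and 528 at gd14 and at most 111 on them. All 3 lay above the 15 other ovary arrays. Of 9 marker genes of nerve tissue tested, 0 were called in either direction, beside 13.8% called over all tested genes. The summed signal of the 10 on the arrays was 9432 on gd12 sample 13, against 1285 and 2078 on gd12 samples 14 and 15. It was 796 to 968 at gd14 and 473 to 1473 at gd16. The part of nerve tissue in these peaks was not tested.

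Among genes of DNA replication, 10 of 29 tested were called higher, 0 lower and 6 were peaks, beside 8.47%, 5.3% and 5.45% of all tested genes. The count called higher was 4 without gd14 sample 11, 5 without gd14 sample 12, 6 without gd12 sample 15 and 6, with 3 peaks, with the mean over probe sets. Ccne2, cyclin E2, which acts at the start of S phase, read 5828, 4309.8 and 4950.5 at gd14, 1503, 921 and 1299 at gd12 and 1312, 1751 and 1688 at gd16 (contrast 1.83 ± 0.18, adjusted p = 1.90e-06). Ube2t, the ubiquitin-conjugating enzyme of the Fanconi anaemia repair pathway and no member of that list, was as sharp, with 1886, 1700.2 and 1914 at gd14 between 362 to 445 and 334 to 519. The other 5 replication peaks were Orc1, Pold1, Cdc45, Mcm5 and Rfc4, with contrasts of 0.88, 0.63, 0.56, 0.52 and 0.46. Orc1 was 1.39 above gd16, but its difference from gd12 was 0.38 and did not pass (adjusted p = 0.132 by limma). Orc1, Pold1 and Cdc45 each had a second probe set that did not peak, and with the mean over probe sets Orc1 and Cdc45 were not called (adjusted p = 0.0862 and 0.217, the latter the highest of 20 alternatives for Cdc45). Without gd14 sample 11 another probe set stood for Orc1 and gave a contrast of −0.16 (adjusted p = 0.616, the highest of its 20), and Cdc45 lost its call as well. The summed signal of the 29 genes did not peak: it was 98961 to 106315 at gd12, 90704 to 98089 at gd14 and 64807 to 68842 at gd16.

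Mitosis genes did not follow. Of 29 tested, 2 were called higher and 4 lower, beside 8.47% and 5.3% of all tested genes. The count called lower was 0 without gd14 sample 12 and with median scaling, 1 without any 1 of gd12 samples 13 and 15, gd14 sample 11 and gd16 sample 7, 2 without gd14 sample 10 and 7 without gd12 sample 14. Bub1, a kinase of the spindle checkpoint, was the single peak, with 8035, 6097 and 7001 at gd14, 3425, 3040.2 and 3076 at gd12 and 2135, 2105 and 2889 at gd16. Top2a was called higher (0.55 ± 0.12) with a difference of 0.04 from gd12. Aurkb, Incenp, Ube2c and Ccna2, all of dividing cells, were called lower, with contrasts of -0.55, -0.53, -0.52 and -0.50. In each of these 4 the larger difference was from gd12.

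**Figure D4:**
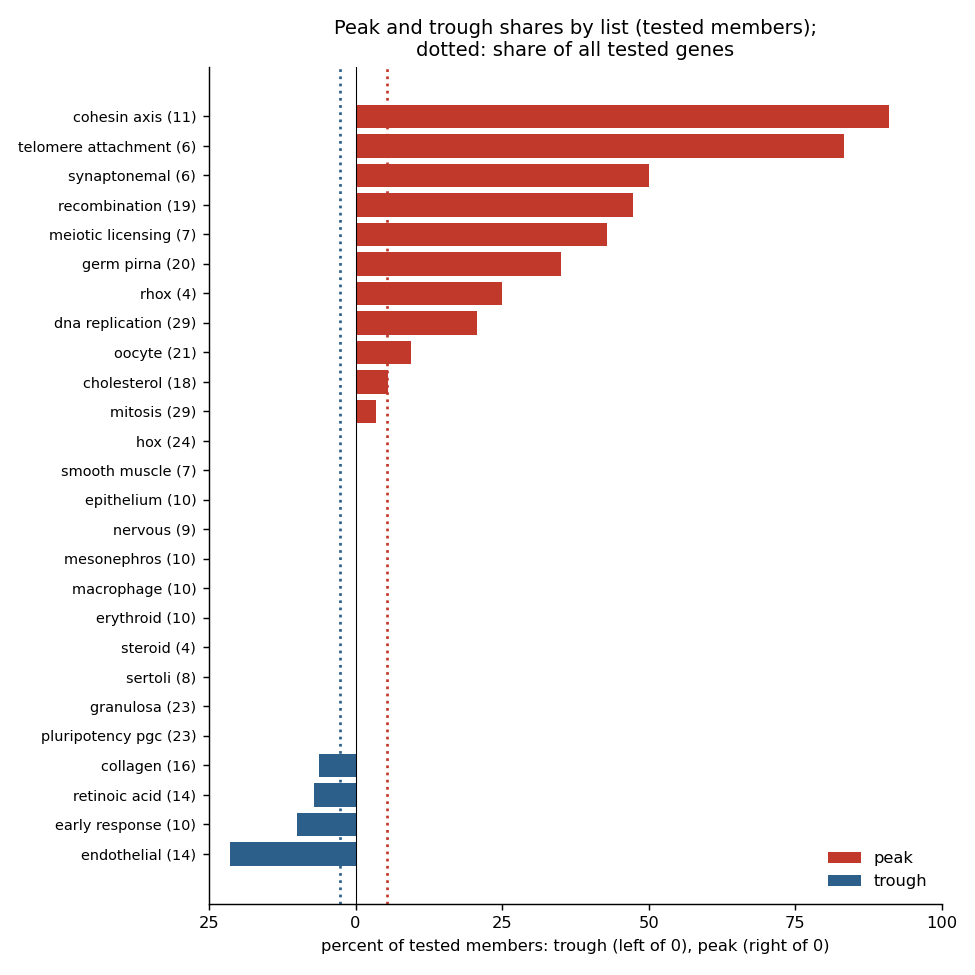
Bars show the percent of tested members of each gene list that were peak genes (red, right of 0) or trough genes (blue, left of 0), with the number tested in brackets and dotted lines at the shares of all tested genes (5.45% and 2.68%). The 5 meiotic lists head the plot, with 10 of 11 cohesin and axis genes as peaks, and the endothelial list lies at its foot with 3 of 14 as troughs.

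A call by the contrast alone did not make a transient gene. Lin28a, Sall4 and Dppa5a, genes of pluripotent and early germ cells, were called higher (contrasts 1.69, 1.20 and 1.23), but their differences from gd12 were 0.25, -1.18 and -0.63. They had not yet reached the low gd16 means of 61.7, 81.1 and 710.4. Among 23 tested genes of that list, 3 were called higher, 2 lower and 0 were peaks, beside 8.47%, 5.3% and 5.45% of all tested genes. The count called lower was 1 without any 1 of 6 arrays (gd12 samples 13 and 14, the gd14 samples and gd16 sample 7), and 1 was a peak without gd14 sample 10. Rhox6, of the X-linked Rhox homeobox cluster, read 1359, 1119 and 988 at gd12, 629, 950.5 and 1132 at gd14 and 23.3, 43.6 and 32.1 at gd16, and Rhox5 and Rhox9 had gd16 means of 541 and 181 against 3667 and 2041 at gd14. Rhox13 alone of the 4 Rhox genes tested was a peak, at 8513, 5348 and 5005 at gd14, 177, 253 and 16.1 at gd12 and 1404, 1506 and 2023 at gd16. Pou5f1 was not called (0.14 ± 0.28, adjusted p = 0.789).

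Oocyte transcription factors divided in the same way. Sohlh2 peaked, with 1371, 2111 and 1899 at gd14, 661, 934 and 411 at gd12 and 537, 580.2 and 957 at gd16, and 95.0% of its rise was undone. Its partner Sohlh1 was called lower (-1.11 ± 0.26), with means of 71.8, 78.3 and 526. Figla, which directs zona pellucida genes, was called higher by the contrast (0.99 ± 0.29, adjusted p = 0.0301) but overlapped between gd14 (273 to 403) and gd16 (369 to 901), and its call was lost without any 1 of gd12 sample 15, gd14 samples 10 and 12 and gd16 sample 7 (adjusted p from 0.0134 to 0.144 over 20 alternatives). In all, 4 of 21 tested oocyte genes were called higher, 2 lower and 2 were peaks, beside 8.47%, 5.3% and 5.45% of all tested genes. The count called higher was 2 without any 1 of gd12 sample 15, gd14 samples 10 and 12 and gd16 sample 7, and the count called lower was 1 without any 1 of the gd14 samples. Foxl2, the granulosa factor, was not called (0.29 ± 0.20) and had means of 372, 1186 and 2565. It was called without gd12 sample 14 (0.47, with adjusted p from 0.0384 there to 0.667 over 20 alternatives). Of 23 granulosa genes tested, 2 were called higher, 0 lower and 0 were peaks, beside 8.47% called higher over all tested genes. Without gd12 sample 14, whose granulosa sum of 65268 was above the 29829 and 45369 of the other gd12 arrays, 7 were called higher and 1 was a peak. Without gd16 sample 7, any 1 gd14 sample or either of the other gd12 samples, 1 was called.

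X-linked genes were peaks at a higher share than other genes and troughs at a lower one. Of 446 X-linked genes tested, 44 (9.87%) were peaks and 5 (1.12%) troughs, against 642 (5.29%) and 332 (2.73%) of 12146 others. Without gd16 sample 7, the array low in Xist, 44 X-linked genes (9.91%) and 639 others (5.27%) were peaks. Genes on the X chromosome named above include Taf7l, Tex11, Cited1 and Rhox13. With each of the 9 arrays left out in turn, 37 to 52 X-linked genes were peaks and 1 to 7 were troughs, the fewest troughs when gd14 sample 11 was dropped and 2 when sample 12 was. The difference from other genes was not tested.

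Trough genes were fewer and shallower. Of the 337, 6 stood on the lists, beside 48 of the 686 peak genes and 362 tested list entries among 12592 tested genes. The lists were chosen with earlier results known, so these counts also reflect that choice. Slco3a1, an organic anion transporter, was the clearest: it read 122, 79.7 and 82.1 at gd14, 599, 346 and 361 at gd12 and 365, 361 and 365 at gd16. Its contrast was -1.77 ± 0.20 (adjusted p = 9.97e-06), and all 3 gd14 arrays lay below the 15 other ovary arrays. Hps4, which serves lysosome-related organelles, read 429.6, 558 and 484 at gd14 against 950.5 to 1255 at gd12 and 882 to 1495 at gd16. Spry1, an inhibitor of receptor tyrosine kinase signals, read 346, 395 and 305 against 733 to 1316 and 489.5 to 969.9. Sostdc1, an antagonist of BMP and Wnt signals, read 92.3, 101 and 72.0 against 215 to 263 and 156 to 272. Tenm4, a teneurin of the cell surface, had a contrast of -1.09 ± 0.21.

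Other leading troughs rested on wide or low values. Pnliprp1, a lipase relative of the pancreas, read 13.3, 28.1 and 18.1 at gd14 and spread from 30.5 to 334 at gd16, where sample 8 was just above the gd14 range. Myb, a transcription factor of blood progenitors, read 115, 112 and 163 at gd14, while gd16 sample 9 at 164.0 nearly touched that range. Grb7, a signalling adaptor, read 20.0, 40.9 and 16.8 at gd14 and 175 to 299.9 and 61.8 to 119.9 at gd12 and gd16. Lor, loricrin of the skin, had a contrast of -1.70 ± 0.36 and a gd18 mean of 119, under its gd14 mean of 182. A second Lor probe set was not called (adjusted p = 0.462). Its means at gd12, gd14 and gd16 were 689, 129 and 30.7, so it had no trough. With the mean over probe sets Lor was still called (-1.05). Pdlim3, of the muscle Z-disc, reached 9.88 to 18.4 at gd14 and 127 to 282 at gd16, and its gd12 signals were 122, 83.3 and 18.7, the last of them nearly touching the gd14 range. Fbxw27 and Oas1e, at no more than 97.0 on all 9 arrays, entered the test through their later levels. Mapk8ip2 lost its call without any 1 of gd12 sample 13, gd14 samples 10 and 11 and gd16 sample 7 (adjusted p from 0.00538 to 0.156 over 19 alternatives). It was not called with the mean over probe sets either. Its second probe set was not called, and had means of 77.7, 27.0 and 13.9 at gd12, gd14 and gd16. Nipal1 lost its call without any 1 of the gd14 samples (0.00277 to 0.0910 over 20 alternatives).

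Endothelial genes held 3 of the 6 listed troughs. Of 14 tested, 5 were called lower and 0 higher, beside 5.3% and 8.47% of all tested genes, of which 2.68% were troughs. The median contrast was −0.57 beside −0.06 over all tested genes. Sox18, an endothelial transcription factor, read 101, 351 and 180.1 at gd14, 512, 386 and 386 at gd12 and 548, 569 and 389.9 at gd16 (contrast -1.16 ± 0.27, adjusted p = 0.00849). Egfl7 and Robo4 were troughs with contrasts of -0.80 ± 0.23 and -0.59 ± 0.15, and Esam and Plvap were called lower. The spread within gd14 was wide, with summed signals of the 15 genes on the arrays of 4031, 7498 and 5665 on samples 10, 11 and 12, against 8078 to 9545 at gd12 and 7399 to 8011 at gd16. The counts turned on single arrays: 8 were called lower and all 8 were troughs without gd14 sample 11, while 1 was called and a trough without gd14 sample 10. Called lower were 2 without gd14 sample 12 and 3 without gd12 sample 13 or 15. Without gd14 sample 10 the call of Sox18 was lost (adjusted p from 0.00107 to 0.0840 over 20 alternatives). Egfl7 lost its call without any 1 of gd12 samples 13 and 15, gd14 sample 10 and gd16 sample 8 and with median scaling (0.0184 to 0.220 over 20 alternatives), and Robo4 without gd14 sample 12 (0.00798 to 0.0882 over 19). Of the 4 tested probe sets of Egfl7, 2 were troughs, and with the mean over probe sets it was not called (adjusted p = 0.0570 by limma).

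Other cell types of the ovary and its surroundings gave few troughs with all 9 arrays, where 2.68% of all tested genes were troughs and 5.3% were called lower, and their counts changed with single arrays. Macrophage markers summed to 2066 to 3630 at gd14, 2713 to 5071 at gd12 and 3899 to 5432 at gd16, and 2 of 10 tested, Csf1r and Tyrobp, were called lower (-0.90 ± 0.24 and -0.70 ± 0.22). Without gd12 sample 14, 5 macrophage genes were called lower and 4 were troughs, while 0 were called without gd14 sample 10 or 12, and 1 without gd12 sample 13 or 15 or gd16 sample 8 or 9. Mesonephric markers summed to 1472 to 2634 at gd14, below both 5694 to 6245 at gd12 and 3077 to 4447 at gd16, and 3 of 10 tested were called lower. Calb1 among them had means of 2170.2, 1269 and 2952, whereas Foxd1 and Cldn8 had gd16 means below gd14. Of the mesonephric genes, 5 were called lower without gd12 sample 14 and 0 without gd14 sample 12, and 1 was a trough without any 1 of gd12 samples 13 and 14 and gd14 sample 10. Of 24 Hox genes tested, 3 were called lower, Hoxb3, Hoxb4 and Hoxc8, and 0 were troughs. Hox genes called lower were 6 without gd12 sample 14 and 0 without gd14 sample 12, and Hox troughs were 3 without gd14 sample 10, 2 without gd16 sample 8 and 1 without gd12 sample 14, gd14 sample 11 or gd16 sample 9. Col15a1, of basement membranes, was the single trough among 16 collagens (125, 174 and 136 at gd14, 255 to 357 at gd12 and 192 to 328 at gd16), and collagen troughs were 4 without gd14 sample 11. Surface epithelium, nerve and steroid lists had 0 calls among 10, 9 and 4 genes tested. Of 8 genes of the testis pathway tested, Dmrt1 was called higher (1.02 ± 0.30), with a gd12 mean of 575 and a gd14 mean of 577, and of 7 smooth muscle genes Rgs5 was called lower (-1.04 ± 0.24). Dmrt1 was not called without any 1 of gd12 samples 13 and 15, gd14 samples 11 and 12 and gd16 sample 8, nor Rgs5 without gd14 sample 10. Of 10 red cell genes, Hbb-y, an embryonic globin, was called higher and 4 were called lower, with 0 peaks and 0 troughs. Red cell genes called lower were 1 without gd14 sample 10 and 2 without any 1 of gd14 sample 12 and gd16 samples 7 and 8, and 3 were troughs without gd14 sample 11 and 1 without gd12 sample 15. The part of tissue carried along at dissection in the troughs was not tested.

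Immediate early and heat shock genes, which handling of tissue can raise, had 3 calls among 10 tested, 1 higher and 2 lower, beside 13.8% called over all tested genes. The summed signal of the 12 on the arrays was 37214 to 45183 at gd14, 35205 to 39373 at gd12 and 32167 to 33781 at gd16, so that gd14 lay above gd16 and overlapped gd12. The part of handling in the results was not tested. Without any 1 of gd12 sample 13 and gd14 samples 10 and 12 none of the 10 was called, and without gd12 sample 15 or gd16 sample 7 the called genes were 1 lower and 0 higher. Ier2 was a trough (292, 321 and 227 at gd14, 402 to 552 at gd12 and 342 to 498 at gd16), whose call was lost without any 1 of gd12 sample 13 and gd14 samples 10 and 12. Among 18 genes of cholesterol synthesis, Fdps, which makes farnesyl diphosphate, was the single peak (0.54 ± 0.15, not called without gd14 sample 11 or 12), Idi1 was called higher and Mvk lower, beside the same 13.8%. Fdps was 0.86 above gd16, but its difference from gd12 was 0.23 and did not pass (adjusted p = 0.398 by limma). At gd11 it read 858, 531 and 679, against 519 to 604 at gd14. Mvk was not called without any 1 of gd12 samples 13 and 15, gd14 samples 11 and 12 and gd16 sample 9, and without gd14 sample 12 none of the 18 was called.

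Genes of retinoic acid synthesis, breakdown, binding and response gave 0 peaks and 1 trough among 14 tested, beside 5.45% and 2.68% of all tested genes. Of the 14, 1 was called higher and 3 lower, beside 8.47% and 5.3%. The count called lower was 1 without any 1 of gd12 sample 15 and gd14 samples 10 and 11, and 0 without gd14 sample 12 and with median scaling. Nrip1, a nuclear receptor corepressor, was the trough, at 1203, 1434 and 1257 at gd14, 1675 to 2142 at gd12 and 1583 to 1645 at gd16, and its call was lost with median scaling and without any 1 of gd12 sample 15 and gd14 samples 10 and 12 (adjusted p from 0.00327 to 0.115 over 20 alternatives). Cyp26b1, which breaks down retinoic acid, read 311, 249 and 307 at gd12, 156, 118 and 113 at gd14 and 166, 117 and 148 at gd16. Its fall from gd12 passed the test and its difference from gd16 did not (-0.13). The call by the contrast (-0.57 ± 0.18) was lost under 12 of 19 alternatives, among them without any 1 of the gd14 samples, gd12 samples 13 and 15 and gd16 samples 7 and 9. Aldh1a1, which makes retinoic acid, was called higher (0.95 ± 0.19), with means of 1348, 6392 and 8512. Rarb, a receptor and known target, was not called (-0.55 ± 0.28) and read 622, 254 and 783 at gd12, where sample 14 was the lowest. Without that array it was called lower (-0.78, with adjusted p from 0.0284 there to 0.392 over 20 alternatives).

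The rule turned on small gaps at its edge. Just above the 6 others lay Gem, with its lowest gd14 array at 113.91 and the highest other at 113.9, and Brip1, at 138.57 and 138.55. Ehd4, at 342.96 and 343.14, and Heatr3, at 699.96 and 700.52, just missed it. Downwards, Ube2d1 was inside with its highest gd14 array at 539.24 and the lowest other at 539.32, as was Son at 3028.93 and 3030.69. Pcolce, at 2227.47 and 2226.31, and Afdn, at 1161.67 and 1160.89, lay outside. With a gap of at least 0.5 on the log2 scale, 184 genes remained above and 7 below.

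A gene was represented by its brightest tested probe set, and its other probe sets gave a partial second reading from the same arrays. For 350 peak genes there were 594 further tested probe sets, of which 266 were called higher, 1 lower and 327 were not called. For 195 trough genes there were 381, of which 48 were called lower, 2 higher and 331 not. Probe sets of troughs thus repeated the call less often than those of peaks, a difference that was not tested. Dazl, Dmc1, Terb1, Spdya, Ugt8a and Bub1 each had all of their 2 tested probe sets as peaks.

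Peak genes also differed from each other at the stages outside the comparison. Of the 686, 270 had a lower mean at gd18 than at gd16, and 404 had a lower mean at gd11 than at gd12. The shares over all tested genes were not taken, so these counts have no background beside them and only describe the set. Prdm9 had means of 73.5 at gd18 and 83.4 at pnd2, near its levels before gd14. Sycp3 had 12524 and 12431, above its gd16 mean of 5575. Hormad1 read 806 at gd18 against 551 at gd16, and Meioc had 712 at gd18 and 48.8 at pnd2. Of the 277 peak genes that rose by at least 1 on the log2 scale from gd12, 76 had at least 75% of the rise undone by gd16 and 18 had under 25% undone.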

How the data were processed

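Signals were read from the deposited series matrix, 1 value for each of 45101 probe sets on 19 arrays, of which 18 were ovary arrays. These are intensity values on a linear scale that the authors computed with GCOS, the Affymetrix software, per the submitters' processing notes; for its version and scaling target the sources used here give nothing, and the file has no detection calls. The number of value columns not used was 0. Of the probe sets, 34958 had 1 gene symbol in the platform annotation, 932 several and 9211 none, and only those with 1 symbol stood for genes; symbols were updated through RefSeq gene numbers.

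From these, log2(signal + 31) was computed, 31 being the 25th percentile of the ovary arrays, with no further scaling, and probe sets with at least 1 stage mean above 116, the median signal, were kept (26431 probe sets, 12592 genes, each gene by its brightest probe set). The pseudocount understates changes of dim genes. limma 3.58.1 in R 4.3.3 was fitted to all 18 ovary arrays, with 1 term a stage, empirical Bayes with a mean-variance trend and 12 residual degrees of freedom. The contrast was gd14 minus the mean of gd12 and gd16, two-sided, with Benjamini-Hochberg adjustment over all tested probe sets and a threshold of 0.05. Every adjusted p printed is from this fit or from the named alternative to it. Samples were grouped by their titles, and p-values measure the spread between samples of a stage. The number of arrays limits the precision. The procedure was tested on simulated data.

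Named genes were the 15 highest peak and 15 lowest trough genes by the smaller of the differences from gd12 and gd16 (clones and predicted genes left out), up to 4 peak and 4 trough genes of each of 26 lists, a fixed panel, and the genes at the edge of the non-overlap rule; further list members are named where a count is explained, after their values were seen. The members and the lists were chosen with earlier results of these data known, so no list was tested as a set. Promoters came from RefSeq (GRCm38.p6). Alternatives changed the pseudocount, the scaling, the filter, the arrays fitted, the trend, the weights, the threshold, the gap, the choice of probe set and each array in turn.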

Additional observations from a re-analysis of the deposited data

How the results depend on the processing

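Peak and trough counts kept within 1.5 times their values under most alternatives. A gap of at least 0.5 on the log2 scale between gd14 and the other arrays left 184 genes above and 7 below, hence 184 peak and 7 trough genes. Requiring a contrast of at least 1 left 304 genes called higher, 80 lower, 240 peak and 29 trough genes, and 539 and 142 probe sets called higher and lower against 1949 and 1256. Median scaling gave 903 peak genes, of which 675 were among the original 686, but 291 genes below all others, 319 called lower, 609 probe sets called lower and 146 troughs. Array weights gave 1921 probe sets called lower. Leaving out each of the 9 arrays in turn gave 882 to 1163 genes above all others, 747 to 1151 below, 679 to 1094 called higher, 220 to 749 called lower, 539 to 760 peaks, 178 to 459 troughs, and 1164 to 1996 and 510 to 1436 probe sets called higher and lower. The lowest counts of calls, peaks and troughs came without gd14 sample 12, which left 497 of the original peak and 150 of the original trough genes. Genes called lower numbered 347 without gd14 sample 10, 441 without sample 11 and 404 without gd12 sample 15. The non-overlap counts are higher with an array left out because fewer arrays have to be cleared. Among the named genes, 1521 contrasts under the alternatives kept direction and call, 94 lost the call, 2 gained it (Foxl2 and Rarb, both without gd12 sample 14) and 3 changed sign. Orc1 ranged from −0.157, without gd14 sample 11, where another probe set stood for the gene, to 1.04 over the arrays left out. Pou5f1, never called, ranged from −0.0506 without gd14 sample 12 to 0.433 without gd14 sample 10, and was −0.0183 without gd12 sample 15. No paired analysis was possible because the sample numbers are all different. With 3 arrays a stage and no detection calls, differences among dim signals and small troughs are the least certain.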

Other observations

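Gene families set by the start of the symbol, picked after their values were seen, also held peaks. Some Tex and Cpeb members are on the lists above as well. Over all tested genes, 8.47% were called higher, 5.45% were peaks and 2.68% were troughs. Of 12 genes of the major histocompatibility complex with a symbol starting H2-, 5 were called higher at gd14 and all 5 were peak genes, with 0 called lower. H2-K1 and H2-D1, class I heavy chains that present peptides on the cell surface, had contrasts of 1.95 ± 0.23 (SE, adjusted p = 1.95e-05) and 1.81 ± 0.26 (SE, adjusted p = 1.41e-04). H2-K1 read 3031, 2611 and 2422 on the gd14 arrays, 545, 377 and 372 at gd12 and 1013, 953 and 1187 at gd16. At pnd2 H2-K1 read 4015, 1931 and 1311 and H2-D1 3763, 1421 and 1521, so sample 1 there was above all gd14 arrays for both. H2-Ke6 was called narrowly (contrast 0.55 ± 0.18, adjusted p = 0.0498 by limma), with a log2 gap of 0.04. H2-Q10 read 188 to 221 at gd14, and 167 on gd16 sample 9. Probe sets of class I genes can share sequence, so the members are not independent readings. H2-Ab1, a class II chain of antigen-presenting cells, was a peak as well (contrast 1.61 ± 0.34), but the other 5 class II genes tested, H2-Aa, H2-DMa, H2-Ea, H2-Eb1 and H2-Eb2, were not called, with contrasts from −0.23 to 0.81.

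Cpeb genes, whose products control the tails and translation of stored RNAs, were all called higher (4 of 4), and Cpeb2 and Cpeb4 were peaks at contrasts of 1.63 ± 0.29 and 1.08 ± 0.17. Cpeb1 and Cpeb3 had gd16 means of 1303 and 464 against 1052 and 439.9 at gd14. Of 8 Haus genes, for the augmin complex that branches spindle microtubules, 4 were called higher and Haus2, Haus3 and Haus8 were peaks, with Haus8 at 1024, 1241 and 1152 on the gd14 arrays, 421, 318 and 398 at gd12 and 512, 333 and 528 at gd16. Testis-expressed (Tex) genes were called higher in 11 of 16 cases and were peaks in 8. Among them were X-linked Tex16 (contrast 3.23 ± 0.33) and Tex13b (contrast 2.42 ± 0.39), besides Tex11, Tex12, Tex14 and Tex101, already counted on the lists above.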
